A study of Mus musculus with 2 samples.

Results

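A small set of sorted hippocampal microglia carried several transcripts assigned to mouse predicted genes built from satellite-like repeat DNA. The cells, called high-repeat cells here, were chosen by their own counts: at least 5 UMIs (unique molecular identifiers, which count transcript molecules rather than reads) summed over Gm21738, Gm10800, Gm10718, Gm11168, Gm10719, Gm10721 and Gm10717. The rule also asked for at least 1500 UMIs, at least 200 genes and at most 10% of UMIs from mitochondrial genes. It found 25 of 8618 cells in the FGR library and 39 of 10687 in Control, 64 of 19305 together. They were set against the 8362 FGR and 10388 Control cells in which none of these UMIs was counted (repeat-free cells). The 231 FGR and 260 Control cells with 1 to 4 of these UMIs (low-repeat cells) were kept apart as an intermediate class that takes no part in that contrast.

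Both libraries came from hippocampal microglia of mice 3 weeks after birth whose RNA was captured in droplets, cell by cell, and sequenced from the 3′ end. One library was from mice with fetal growth restriction (FGR), impaired growth before birth, and the other from Control mice. All mice were Tmem119-tdTomato+/-, with a red reporter of a gene that microglia express, and cells positive for it had been sorted by flow cytometry. The sources used here state neither how growth was restricted nor how many animals went into a library. Each group was 1 library, so no test between FGR and Control was possible, and every interval given is an exact 95% interval that covers counting error only.

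Mouse chromosomes carry long tandem arrays of major satellite (also called gamma satellite) next to their centromeres. These arrays are packed as heterochromatin, the compact and mostly silent form of chromatin, and transcripts from them are usually scarce. Short pieces of such repeats also lie outside the assembled centromeres, and automatic annotation has turned some of them into predicted protein-coding genes with no known function. Because the copies are nearly alike, a short read may be assigned to one predicted gene or another, so the 7 genes are best read as a sum.

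The sequence that the 7 genes share is shown because it is what links them. In GENCODE M21 (GRCm38) the third exon of Gm21738 spans chr14:19417133-19417366 on the minus strand, is annotated as coding and is 234 bases long. Read along the transcribed strand it is as follows, with the 3 copies of the 12-base motif TTTTCAGTTTTC, the longest word present 3 times in it, in capitals.
Gm21738 exon 3: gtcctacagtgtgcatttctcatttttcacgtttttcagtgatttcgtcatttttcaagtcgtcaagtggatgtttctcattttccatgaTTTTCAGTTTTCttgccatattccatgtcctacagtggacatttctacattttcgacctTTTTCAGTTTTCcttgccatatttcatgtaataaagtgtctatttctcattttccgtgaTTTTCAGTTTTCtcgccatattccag
The exon resembled itself when shifted by 118 bases, at which 62.1% of 116 positions were identical, and by 58 bases, at which 54.5% of 176 were. The motif was present in 20 of the 20 annotated transcripts of the 7 genes. Searched on both strands, it was present anywhere in 0.156% of the 133645 annotated transcripts at least 234 bases long (209), and in the last 234 bases of 0.0471%.

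The closeness of the copies is shown by a 60-base stretch of that exon and the most similar 60 bases within an exon of other genes, with differences from Gm21738 in capitals.
Gm21738, chr14:19417241-19417300, minus strand: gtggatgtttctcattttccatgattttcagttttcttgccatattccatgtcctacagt
Gm10718, chr9:3024478-3024537, plus strand: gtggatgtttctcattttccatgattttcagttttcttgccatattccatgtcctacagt
Gm10800, chr2:98666761-98666820, minus strand: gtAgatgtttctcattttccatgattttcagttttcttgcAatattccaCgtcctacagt
Gm10801, chr2:98663810-98663869, plus strand: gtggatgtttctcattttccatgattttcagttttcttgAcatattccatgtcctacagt
Gm11168, Gm10719, Gm10721 and Gm10717, which with Gm10718 lie near the start of chromosome 9 (chr9:3003346-3033289), hold the same 60 bases as Gm21738. Gm10800 differed at 3 of the 60 positions. Between pairs of the 7 genes, 9.93% to 79.5% of the 24-base words of one were found in the other. Among all annotated genes, 6 more shared at least 1 such word with the 7 on either strand, and 5 of them are in the matrices (Gm10801, Gm10715, Gm17535, Gm10720 and Gm10722). The transcribed strand of Gm21738 is 46.4% T and 18.4% A, and its longest run of A is 3 bases, against a median longest run of 5 over annotated transcripts.

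The FGR library held 50833332 UMIs over all barcodes and the Control library 58988805. High-repeat cells had a median of 5052 UMIs and 2131 genes in FGR and of 4823 UMIs and 2091 genes in Control, slightly above the repeat-free cells. Repeat-free cells had medians of 4907.5 UMIs and 2065 genes in FGR and of 4646.5 UMIs and 2054 genes in Control. The median mitochondrial share was 1.37% in FGR high-repeat cells against 1.95% in FGR repeat-free cells, and 2.12% against 1.94% in Control. The libraries shared 31 cell barcodes, and none of them was a high-repeat cell.

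UMIs of the 7 genes were rare in most cells and concentrated in a few. Any such UMI was found in 2.97% of FGR cells (256 of 8618) and 2.80% of Control cells (299 of 10687). High-repeat cells made up 0.290% of FGR cells (exact binomial interval 0.188% to 0.428%) and 0.365% of Control cells (0.260% to 0.499%). They held 218 of the 602 repeat UMIs of all FGR cells, or 36.2%, and 342 of 744 in Control, or 46.0%. The mean per cell was 0.0699 in FGR and 0.0696 in Control, and the variance was 5.32 and 6.08 times that mean. The median high-repeat cell held 7 repeat UMIs in each library, and the highest held 22 in FGR and 26 in Control.

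These UMIs were a small part of each cell's RNA. They made up a median of 0.135% of UMIs in FGR high-repeat cells (range 0.0424% to 0.406%) and 0.140% in Control (0.0601% to 0.676%). No high-repeat cell held UMIs of 1 gene alone, but without Gm21738 only 14 FGR and 20 Control cells held 5 repeat UMIs or more. The median cell held UMIs of 4 of the 7 genes, and 24 of 25 FGR cells and 35 of 39 Control cells held 3 or more. The threshold falls within a continuous tail: 8 FGR and 9 Control cells held exactly 5 repeat UMIs, and 18 FGR and 15 Control cells held 4. When each cell was thinned to 1500 UMIs and at least 2 repeat UMIs were asked for, the shares were 0.383% in FGR and 0.346% in Control, so no order between the libraries can be read from them.

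**Figure D1:**
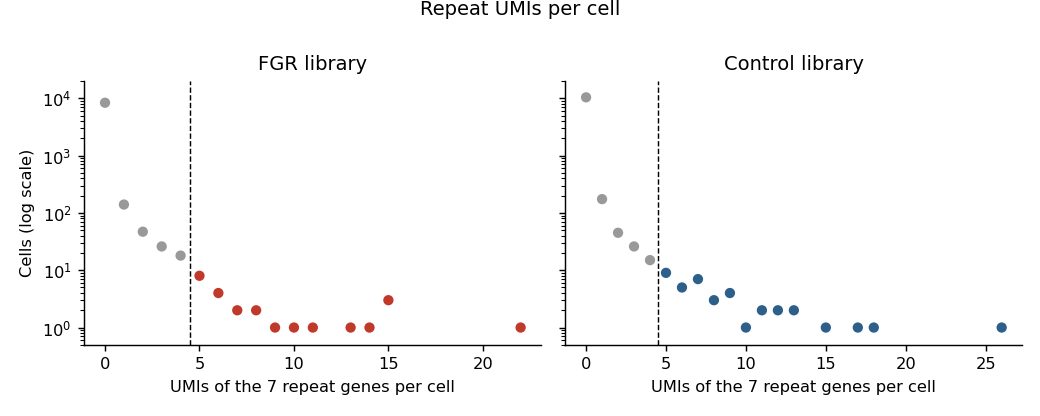
Number of cells (log scale) at each count of UMIs summed over the 7 repeat genes, in the FGR and Control libraries. Coloured points right of the dashed line are the 25 FGR and 39 Control high-repeat cells, and the counts run without a gap from 0 to 11 UMIs in FGR and to 13 in Control.

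Gm21738 and Gm10800 were the most abundant of the 7 genes, as a description of the values that chose the cells. Gm21738, on chromosome 14, gave 50 UMIs in FGR high-repeat cells (369 CPM, UMIs scaled to a common total per class) and 124 in Control (561.7 CPM). It was found in 92% of the FGR and 89.7% of the Control high-repeat cells. Gm10800, on chromosome 2, gave 66 UMIs in FGR (487.6 CPM) and 59 in Control (267 CPM), in 60% and 56.4% of the cells. The 5 genes of chromosome 9 together gave 102 UMIs in FGR and 159 in Control, which was 46.8% and 46.5% of the repeat UMIs. Gm10717 was the lowest of the 7 in Control high-repeat cells, at 99.6 CPM, and shared the lowest place with Gm10719 in FGR, at 111 CPM each. Since 3′ counts do not scale with transcript length, these levels are shares of the cells' UMIs and not per length.

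**Figure D2:**
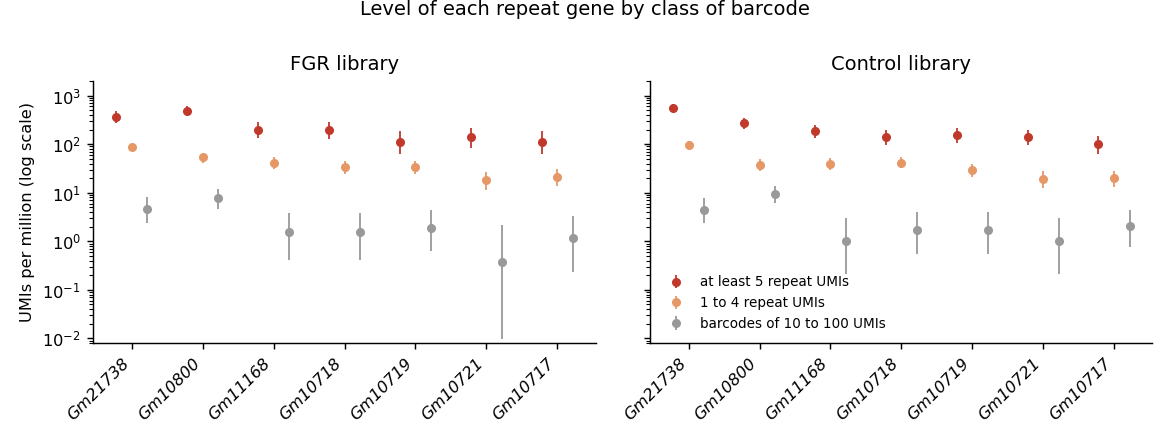
Level in CPM (log scale) of each of the 7 repeat genes in high-repeat cells, low-repeat cells and barcodes of 10 to 100 UMIs, with exact binomial intervals. In both libraries all 7 genes are highest in high-repeat cells, which the rule fixes. Gm10800 is first in FGR high-repeat cells (487.6 CPM), Gm21738 in Control high-repeat cells (561.7 CPM), and Gm10800 in the barcodes of 10 to 100 UMIs of both libraries.

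The make-up of the repeat UMIs differed from cell to cell. In FGR, 13 of 25 high-repeat cells held UMIs from all 3 chromosomes (2, 9 and 14), and 17 of 39 did in Control. UMIs of at least 2 of the 3 were present in 25 of 25 and 38 of 39 cells. Gm10800 made up more than 50% of the repeat UMIs in 5 FGR and 2 Control cells and was not counted in 10 FGR and 17 Control cells. The FGR cell with the most repeat UMIs held 15 of Gm10800 among its 22, and another FGR cell held 12 among 15. The Control cell with the most held 12 of Gm10800 and 5 of Gm21738 among 26. A further Control cell had 9 of Gm21738 and none of Gm10800 among 18. Gm21738 was absent from 2 FGR and 4 Control cells.

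A Control high-repeat cell stood apart in quality, with 450 genes in 2242 UMIs and 7.89% mitochondrial UMIs. The deepest high-repeat cells held 11779 UMIs in FGR and 14636 UMIs in Control, where 3 others held 10539 to 12087, and droplets of such depth may hold more than 1 cell. The median doublet score was 0.101 in FGR high-repeat and 0.0972 in FGR repeat-free cells, and 0.158 and 0.124 in Control.

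Free RNA also held these transcripts, at a level far below that of high-repeat cells but not below that of all filtered cells together. Barcodes of 10 to 100 UMIs, which hold mostly free RNA, carried the 7 genes at 18.7 CPM in FGR and 21.3 CPM in Control. At that level a high-repeat cell of median depth would hold 0.0946 repeat UMIs in FGR and 0.103 in Control if all of its RNA were free RNA, and the rule, which asks for 5, fixes that high-repeat cells lie above this. Summed over all cells that passed the filters the level was 13.2 CPM in FGR and 13.9 CPM in Control, and in high-repeat cells it was 1610 CPM (1404 to 1839) in FGR and 1549 CPM (1389 to 1722) in Control. Gm10800 supplied 40.8% (FGR) and 43.5% (Control) of the repeat UMIs of these small barcodes, against 30.3% and 17.3% in high-repeat cells. Among barcodes under 1500 UMIs, at least 5 repeat UMIs were found in 1 of 1927194 in FGR and 0 of 1951001 in Control.

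The high-repeat cells were microglia by their markers. All 12 microglial markers were detected, and each high-repeat cell held UMIs of at least 6 of them. The summed level was 48080 CPM in FGR high-repeat cells against 42311 CPM in repeat-free cells, and 42340 against 42828 CPM in Control. Tmem119, the gene behind the sort, was at 1139 CPM in FGR high-repeat and 949.6 CPM in FGR repeat-free cells, and at 862 and 910.2 CPM in Control. P2ry12, a purinergic receptor of resting microglia, was at 3056 and 2697 CPM in FGR and at 3484 and 3395 CPM in Control.

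Markers of other cell types were scarce in these cells. The 91 markers of other types summed to 584.5 CPM in FGR high-repeat cells against 918.5 CPM in repeat-free cells, and to 544 against 794 CPM in Control. At least 3 such UMIs were found in 48% of FGR high-repeat and 49.8% of FGR repeat-free cells, and in 53.8% and 45.4% in Control. Without all such cells the Sfi1 ratio of high-repeat over repeat-free cells was 8.94 in FGR and 6.15 in Control. No high-repeat cell held more than 12 UMIs of these markers in FGR or 8 in Control. At least 3 oligodendrocyte marker UMIs were found in 12% of FGR high-repeat and 3.01% of FGR repeat-free cells, and in 5.13% and 7.87% in Control. Neutrophil and oligodendrocyte precursor markers were at 0 UMIs in both sets of high-repeat cells. Of cells with at least 50 UMIs of these markers, 0 of 43 in FGR and 0 of 42 in Control held a repeat UMI, which allows a share of up to 8.22% and 8.41% (upper exact binomial limits). Their median depths were 7133 UMIs in FGR and 5349 UMIs in Control, and with so few cells a lower share of repeat UMIs than in microglia could not be shown.

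Outside the 7 genes, Sfi1 and AC149090.1 were higher in high-repeat cells in both libraries. Sfi1 encodes a centrin-binding protein of the centrosome and lies near the start of chromosome 11 (chr11:3131850-3193463, minus strand). It was at 111 CPM in FGR high-repeat cells against 19.0 CPM in repeat-free cells, a ratio of 5.85 (3.26 to 9.70). In Control it was at 113 against 22.2 CPM, a ratio of 5.11 (3.29 to 7.59). AC149090.1, a predicted protein-coding gene on the unplaced scaffold JH584304.1 (bases 52190 to 59690, minus strand), was at 532.7 against 195.1 CPM in FGR, a ratio of 2.73 (2.13 to 3.44). In Control it was at 503.6 against 218.3 CPM, a ratio of 2.31 (1.90 to 2.78). The groups' cells overlapped for both genes, since many repeat-free cells held UMIs of each.

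Both genes were graded over the 3 classes. A Sfi1 UMI was found in 40% of FGR high-repeat cells, 24.7% of low-repeat cells and 8.59% of repeat-free cells. The shares in Control were 43.6%, 20.8% and 9.61%. For AC149090.1 they were 92%, 68.8% and 58.1% in FGR and 89.7%, 78.1% and 59.8% in Control. Low-repeat cells, which took no part in choosing these genes, had Sfi1 at 2.89 times the repeat-free level in FGR (2.24 to 3.67) and AC149090.1 at 1.56 times (1.41 to 1.72). In Control these were 2.20 times (1.7 to 2.81) and 1.52 times (1.39 to 1.67). Without the 2 cells of each library with the most Sfi1 UMIs, a choice made after seeing the data, the Sfi1 ratio was 3.42 (1.47 to 6.77) in FGR and 4.11 (2.46 to 6.44) in Control. Sfi1 transcripts in the annotation hold none of the 24-base words of the 7 genes, among 7959 Sfi1 words; its introns were not compared.

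The same-repeat gene Gm10801, which was not in the rule, was also graded. It lies beside Gm10800 on chromosome 2 and differed from Gm21738 at 1 position of the stretch shown above. It gave 8 UMIs in FGR high-repeat cells (59.2 CPM), 9 in low-repeat cells (6.77 CPM) and 3 in the 8362 repeat-free cells. In Control it gave 6 (27.2 CPM), 3 (2.12 CPM) and 3. It was found in 20% of FGR and 15.4% of Control high-repeat cells, and 6 of its 8 FGR UMIs were in the 5 cells in which Gm10800 led. Gm10715 gave 1 UMI in FGR and 4 in Control high-repeat cells, and Gm17535 gave 2 and 3, against 0 FGR and 1 Control UMI of each in repeat-free cells. These genes share sequence with the 7, so their reads may come from the same transcripts.

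**Figure D3:**
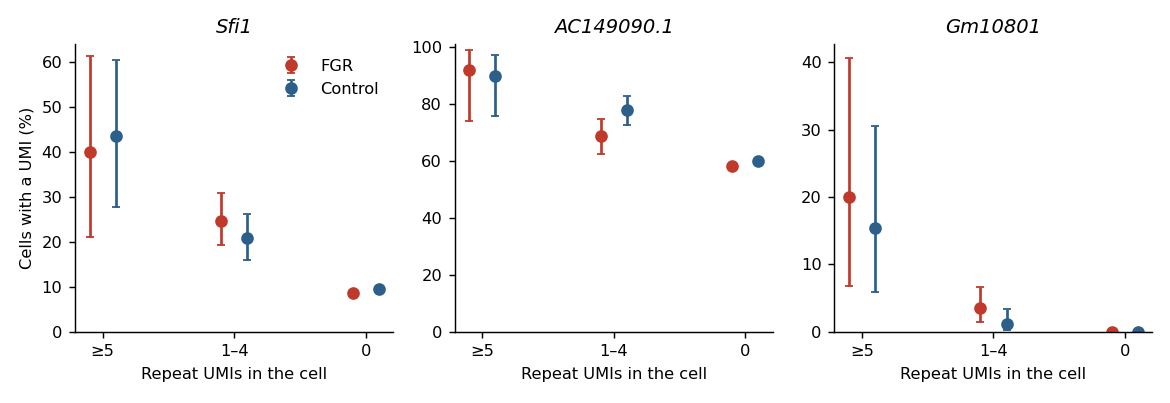
Share of cells with a UMI of Sfi1, AC149090.1 and Gm10801 in high-repeat (5 or more), low-repeat (1 to 4) and repeat-free (0) cells, with exact binomial intervals, for the FGR and Control libraries. Each share is highest in high-repeat and lowest in repeat-free cells in both libraries: for Sfi1 it is 40% against 8.59% in FGR and 43.6% against 9.61% in Control.

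Few other genes passed a rule of size between high-repeat and repeat-free cells. Of 3429 genes at 50 CPM or more in at least 1 class of each library, a ratio passed when its interval lay wholly beyond 1.5-fold. Sfi1 and AC149090.1 were the 2 genes (0.0583%) that passed as higher in both libraries, and 0 (0.0%) passed as lower in both. Sfi1, at 19.0 and 22.2 CPM in FGR and Control repeat-free cells, was below the floor there. It entered the 3429 genes only through the high-repeat cells in which it was high. Within libraries, 4 genes (0.117%) passed as higher and 9 (0.262%) as lower in FGR, and 3 (0.0875%) as higher and 3 (0.0875%) as lower in Control. In the low-repeat class, over the same 3429 genes, Sfi1 was the 1 gene (0.0292%) that passed as higher in both libraries, and none (0.0%) passed as lower. The median log2 ratio of all 3429 genes was 0.01 in each library. The interval lay wholly within 1.5-fold for 378 genes (11%) in FGR and 740 (21.6%) in Control, so for most genes a difference of that size was not detectable at this depth. A gene at 50 CPM in repeat-free cells had to reach a ratio of 2.66 in FGR or 2.36 in Control to pass.

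Several genes that passed in 1 library only had other values in the other, but not all did. Tmx4, lower in FGR at a ratio of 0.42, was at 0.63 (0.39 to 0.96) in Control. Adamts1, lower in Control at 0.23, was at 0.65 (0.43 to 0.93) in FGR. In FGR, Sertad1, which encodes a regulator of the cell cycle, was at 148 CPM in high-repeat against 50.3 CPM in repeat-free cells, but at 132 against 128 CPM in Control. Apoe, a lipid carrier gene raised in reactive microglia, was at 599 against 1541 CPM in FGR, a ratio of 0.39 (0.31 to 0.48), and at 1307 against 1468 CPM in Control, a ratio of 0.89. It was found in 68% of FGR high-repeat and 67.2% of FGR repeat-free cells. At a minimum of 3 and of 10 repeat UMIs the Apoe ratio was 0.974 and 0.127 (0.0547 to 0.250) in FGR, and 0.824 and 1.13 in Control. The chemokine gene Ccl3 was at 577 against 1367 CPM in FGR and at 667 against 785.6 CPM in Control, ratios of 0.42 and 0.85. At a minimum of 3 and of 10 repeat UMIs the Ccl3 ratio was 0.774 and 0.875 in FGR, no longer past the rule, and 0.789 and 0.308 in Control. In Control, Spry1, an inhibitor of growth factor signalling, was at 99.8 against 32.9 CPM, with a UMI in 25.6% of high-repeat and 12.7% of repeat-free cells. Its FGR levels were 59.2 against 46.1 CPM, so Spry1 too reached the floor only through high-repeat cells.

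**Figure D4:**
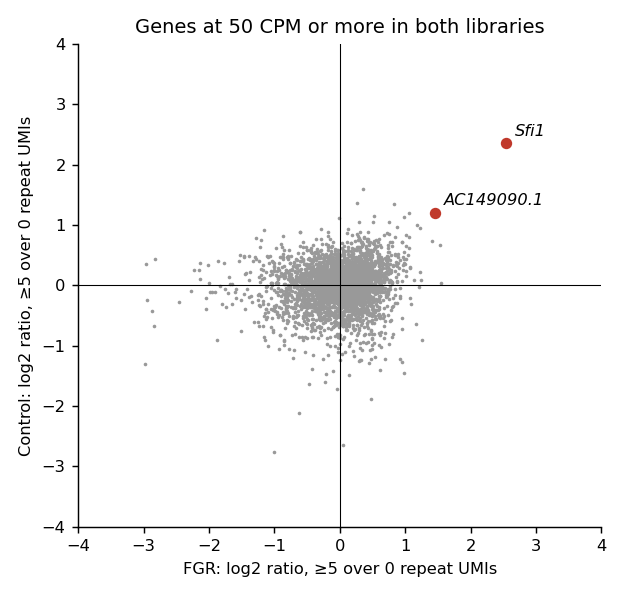
Log2 ratio of high-repeat over repeat-free cells for 3429 genes, FGR on the horizontal and Control on the vertical axis, with the 7 rule genes left out. Sfi1 (2.55 in FGR) and AC149090.1 (1.45 in FGR) lie apart from the cloud, which centres on 0.01 in each library.

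No heterochromatin gene passed the rule of size in high-repeat cells. Of 31 genes of this list 14 were measured. Of these, 4 had a ratio above 1 in FGR and 3 in Control, against 51.2% and 51.6% of all measured genes. The median log2 ratio of the list was -0.11 in FGR and -0.14 in Control, against 0.01 for all genes. The summed level of the list was 0.931 times the repeat-free sum in FGR (0.819 to 1.05) and 0.962 times in Control (0.877 to 1.05). Setdb1, a histone methyltransferase that silences repeats, was at 22.2 against 60.1 CPM in FGR and 77.1 against 67.1 CPM in Control. Cbx1, which encodes a heterochromatin protein, was at 59.2 against 100.4 CPM in FGR and 118 against 120.2 CPM in Control. The FGR high-repeat values rested on 3 UMIs of Setdb1 and 8 of Cbx1. Mbd3, of the same list, went the other way in FGR, at 140.6 against 74.6 CPM, a ratio of 1.88 (1.13 to 2.95). In Control Mbd3 was at 72.6 against 82.3 CPM. Of 15 centromere and kinetochore genes 1 was measured, too few to describe the list.

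No sensor of nucleic acids passed the rule of size. Of 9 measured genes, the ratio was above 1 for 8 in FGR and 7 in Control, while 51.2% and 51.6% of all 3429 genes were above 1. Some other lists came near these shares in 1 library but not in the other. Homeostatic genes had 17 of 22 in FGR and 12 of 22 in Control, and ribosomal protein genes 1 of 28 and 20 of 28. Immediate early genes were above 1 for 15 of 22 in FGR and 14 of 22 in Control. The summed level of the sensors was 2279 CPM in FGR high-repeat, 1846 CPM in low-repeat and 1887 CPM in repeat-free cells, and 2191, 1994 and 1968 CPM in Control. The ratio of the high-repeat over the repeat-free sum was 1.21 (1.08 to 1.35) in FGR and 1.11 (1.02 to 1.22) in Control. A sum above 1 in both libraries was not particular to the sensors. For immediate early genes it was 1.08 (1.06 to 1.11) in FGR and 1.08 (1.05 to 1.10) in Control. For homeostatic genes it was 1.11 (1.09 to 1.13) and 1.02 (1.005 to 1.037). Cgas, the sensor of DNA in the cytosol, was at 88.8 against 42.9 CPM in FGR, a ratio of 2.07 (1.07 to 3.62), and at 86.2 against 60.5 CPM in Control, a ratio of 1.42 (0.86 to 2.23). Tlr7, the endosomal sensor of RNA, was at 311 against 230 CPM in FGR and 222 against 173 CPM in Control. The interferon response list had 2 measured genes of 21, neither past the rule. Trim30a was at 178 against 108 CPM in FGR and 145 against 111 CPM in Control, and Bst2 at 81.4 against 117 CPM and 77.1 against 95.1 CPM.

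Lists of cell state also gave no gene that passed in Control and few in FGR. For homeostatic microglial genes, 22 of 22 were measured, none passed, and the median log2 ratio was 0.13 in FGR and 0.01 in Control. Of 17 measured inflammatory genes, 0 passed as higher and 2 (Ccl3 and Ccl2) as lower in FGR, and none passed in Control. Of 9 disease-associated genes, 2 (Apoe and Cd63) passed as lower in FGR and none in Control. Over all 3429 measured genes, 0.262% passed as lower in FGR and 0.0875% in Control. None passed among 22 immediate early, 11 glucocorticoid response, 10 heat shock, 8 p53 and DNA damage, 4 cell cycle and 9 histone genes, nor among 15 complement and phagocytosis, 19 lysosome, 28 ribosomal protein, 5 RNA decay and 23 nuclear respiratory chain genes. Dusp1, a phosphatase gene on the immediate early and glucocorticoid lists, was at 3367 against 2705 CPM in FGR and at 812 against 578 CPM in Control, ratios of 1.24 (1.13 to 1.36) and 1.40 (1.21 to 1.63). At a minimum of 10 repeat UMIs the Dusp1 ratio turned to 0.830 (0.669 to 1.02) in FGR and was 1.03 in Control, and without cells of at least 3 non-microglial UMIs it was 1.03 and 2.05. Tsc22d3, a glucocorticoid-induced gene, was at 784 against 557 CPM in FGR and 268 against 189 CPM in Control. Its low-repeat level was 0.976 times the repeat-free level in FGR. Mt1, also on the glucocorticoid list, was lower in both libraries, at ratios of 0.526 (0.294 to 0.868) in FGR and 0.484 (0.282 to 0.775) in Control. Of the 11 measured genes of that list, 8 had a ratio above 1 in FGR and 5 in Control.

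RNA of the mitochondrial genome was lower in sum in FGR high-repeat cells, although none of its 13 genes passed. The median log2 ratio was -0.43 in FGR and -0.09 in Control, and the sum was 16204 against 22215 CPM in FGR, a ratio of 0.729 (0.699 to 0.761). In Control the sum was 21317 against 22646 CPM, a ratio of 0.941 (0.915 to 0.969). None of 4 nuclear-retained RNAs passed, and Malat1, the most abundant, was at 22249 against 24353 CPM in FGR and at 22569 against 22767 CPM in Control. Transcripts that overlap ribosomal RNA repeats, led by Gm42418, summed to 0.955 times the repeat-free level in FGR (0.920 to 0.990) and 0.942 times in Control (0.916 to 0.968).

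**Figure D5:**
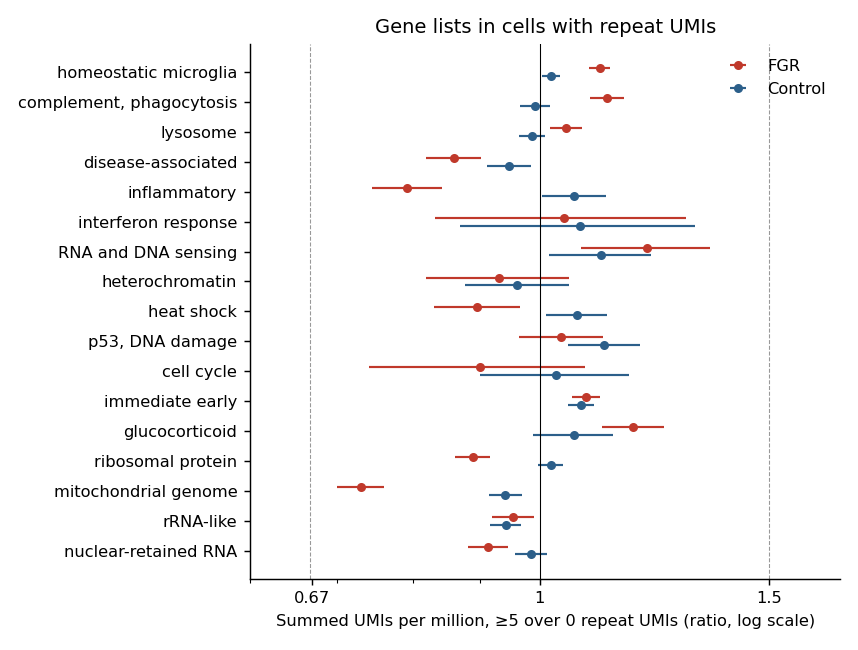
Ratio of the summed CPM of gene lists, high-repeat over repeat-free cells, on a log axis with exact intervals and dashed lines at 1.5-fold either way. Of the lists plotted, the FGR ratios run down to 0.729 for the mitochondrial genome and up to 1.21 for RNA and DNA sensing, and the Control ratios run from 0.941 for the mitochondrial genome to 1.12 for p53 and DNA damage.

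Few high-repeat cells had another among their 15 nearest neighbours in expression. With the repeat genes left out of the 2000 variable genes, 2 neighbours of the 25 FGR high-repeat cells were themselves high-repeat (0.533%), against 0.356% of the neighbours of repeat-free cells. In Control 4 neighbours of the 39 cells were (0.684%), against 0.374%. Genes near the centromeric end of chromosomes had ratios close to those of other genes. The 60 measured genes that end within 5 Mb of a chromosome start had a median log2 ratio of 0.05 in FGR and 0.02 in Control, against 0.02 and 0.01 for 3264 other autosomal genes, and 1 of them, Sfi1, passed in each library. The neighbours of Sfi1 were all below the floor of 50 CPM, which Sfi1 itself reached in high-repeat but not in repeat-free cells. Drg1 and Eif4enif1 were at 22.2 against 38.5 CPM and 37.0 against 31.8 CPM in FGR, and at 36.3 against 42.1 CPM and 49.9 against 35.9 CPM in Control. Limk2, a kinase gene, gave 2 UMIs in FGR high-repeat cells (14.8 against 6.25 CPM, a ratio of 2.37, 0.285 to 8.63) and 5 in Control (22.7 against 6.16 CPM, a ratio of 3.68, 1.19 to 8.68). 8430429K09Rik gave 1 and 2 UMIs, ratios of 2.65 (0.0664 to 15) and 2.51 (0.301 to 9.18).

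Between the FGR and Control libraries, glucocorticoid response, histone and immediate early genes were the lists with the largest shares of genes past the rule as higher, in high-repeat and in repeat-free cells alike. Of 3993 genes measured, 46 (1.15%) passed the same rule as higher and 20 (0.501%) as lower in FGR. In repeat-free cells 87 of 3509 (2.48%) passed as higher and 42 (1.2%) as lower. Of the 46 genes higher in high-repeat cells, 35 (76.1%) also passed as higher in repeat-free cells, where they made up 40.2% of the genes that passed. Of the 20 lower ones 4 (20%) also passed as lower there, or 9.52% of those that passed. Genes not among the 3509 measured in repeat-free cells, such as Hist1h1b and Slfn2, could not pass there. The 2 comparisons use different cells of the same 2 libraries, so they share any difference between the libraries.

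The glucocorticoid response list had 6 of 11 genes past the rule as higher and 0 as lower, with a median log2 ratio of 1.05, against a median of -0.00 for all genes. In repeat-free cells it had 7 of 11 and a median of 1.04. Dusp1 was at 3367 CPM in FGR and 812 CPM in Control high-repeat cells, a ratio of 4.15 (3.48 to 4.96). Ddit4, a stress-induced inhibitor of growth signalling, was at 392.2 and 63.5 CPM, a ratio of 6.17 (3.38 to 12.1). Tsc22d3 was at 784 and 268 CPM, a ratio of 2.93 (2.11 to 4.10). Histone genes, a list of linker, core and variant histones, had 5 of 12 past the rule as higher, and 5 of 11 in repeat-free cells. Among them Hist1h1d, a linker histone gene, was at 229 and 36.3 CPM in high-repeat cells. Immediate early genes had 7 of 23, and 10 of 22 in repeat-free cells, among them Fos at 4343 and 2209 CPM in high-repeat cells.

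The genes furthest apart between the libraries rested on few UMIs. Hspb1, a small heat shock protein gene, gave 12 UMIs, from 3 cells, in FGR and 0 in Control high-repeat cells. Against a floor of 3 UMIs over the class, a point value and not a minimum, Hspb1 was 6.52-fold higher (lower interval limit 4.53). On the same floor Hist1h1b was 5.44-fold higher (lower limit 3.66), with its 10 UMIs in 8% of the FGR high-repeat cells. Sdc4 was 4.35-fold higher (2.78), and Ccdc130 and Hist1h3a 3.81-fold each (2.35). Cxcl10, an interferon-induced chemokine gene, gave 36 UMIs in 4 FGR cells and 1 UMI in Control, a ratio of 58.7 (9.89 to 2383). Slfn2 gave 0 UMIs in FGR and 16 in Control. On the same floor it was 3.27-fold lower, Fbxl15 2.86-fold, Fiz1 2.66-fold and Arfrp1 2.45-fold lower. The upper interval limits of these 4 ratios were 0.423, 0.492, 0.535 and 0.587. Alas1 and Gmeb1 gave 1 UMI each in FGR against 20 and 19 in Control. Of these 12 genes, Hspb1, Sdc4 and Cxcl10 also passed as higher in FGR in repeat-free cells. Alas1 and Gmeb1 were measured there and did not pass. Ccdc130, Hist1h1b, Hist1h3a, Slfn2, Fbxl15, Fiz1 and Arfrp1 were too low in repeat-free cells to be measured, so they could not pass there. Hist1h1b was nonetheless at an FGR over Control ratio of 2.78 (2.45 to 3.16) in repeat-free cells, and Hist1h3a at 2.68 (2.39 to 3.02). Ccdc130 was at 0.99, Slfn2 at 1.19, Fbxl15 at 0.82, Fiz1 at 0.85 and Arfrp1 at 0.93. Neither gene of the first contrast passed here: the FGR over Control ratio in high-repeat cells was 0.98 (0.48 to 1.93) for Sfi1 and 1.06 (0.78 to 1.44) for AC149090.1.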

How the data were processed

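Each deposited matrix holds whole-number UMI counts for every gene in every barcode, without cell filtering, and names Cell Ranger 4 as its source, per the file headers. The submitters' processing notes name Cell Ranger 3.0, Seurat 5.0 and mm10. The sources used here do not state whether strand was used in counting. Of 32285 gene IDs, 32235 were found in GENCODE M21 (GRCm38), which gave coordinates and sequences. Cells were filtered by the rule in the text. UMIs were summed per class and library and scaled to counts per class total (CPM) with the 7 rule genes left out of the totals for other genes. Ratios carry exact conditional intervals from the UMI sums, and shares and levels carry Clopper-Pearson (exact binomial) intervals, all at 95%. A gene was measured at 50 CPM or more. UMIs of 1 cell are not independent, so intervals understate the spread between cells, and no p-value is given. Neighbours came from 2000 variable genes, 30 principal components and 15 neighbours (scanpy 1.11.5). Scrublet called 0 FGR and 2 Control doublets and has not worked, so doublets remain. The calculation was tested on simulated counts.

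Genes named are the 7 rule genes, those past the rule in both libraries, up to 4 members of each list with the largest mean absolute log2 ratio, microglial markers (not all are reported here), and the 6 highest and 6 lowest between FGR and Control. Other genes past the rule, same-repeat genes, neighbours of Sfi1 and further list members were named after their values were seen. The members, lists and rules were chosen with earlier results of these data known. Alternatives changed the repeat threshold, UMI minimum, depth, scaling (edgeR TMM factors on the deposited counts), expression floor, mitochondrial limit, doublets and non-microglial UMIs. Sequence for AC149090.1 was not used here.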

Additional observations from a re-analysis of the deposited data

How the results depend on the processing

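High-repeat cells came to 0.801% of FGR and 0.749% of Control cells at a minimum of 3 repeat UMIs, 0.0928% and 0.103% at a minimum of 10, and 0.162% and 0.187% without Gm21738. Other settings for the share (a minimum of 0.1% of UMIs, other UMI minimums, thinning, doublet scores) stayed within the counting interval. Genes past the rule as higher in both libraries numbered 0 after thinning each cell to 1500 UMIs, which leaves fewer UMIs per class. Sfi1 was then at a ratio of 2.52 (0.304 to 9.19) in FGR, an interval that includes 1, and 5.08 (2.03 to 10.6) in Control. Genes past the rule numbered 4 without cells of at least 3 non-microglial marker UMIs (Sfi1, AC149090.1, Hist1h1d and Tnfrsf23) and 1 (AC149090.1) without the 2 members with most Sfi1 UMIs. At a floor of 20 CPM Gm10801 passed too. Over the 11 alternatives AC149090.1 ranged from 2.16 to 3.11 in FGR and from 1.98 to 3.01 in Control, and Sfi1 from 2.52 to 11.6 and from 3.65 to 6.15. The floors of 20 and 100 CPM, counted among the 11, cannot change a gene's ratio. Genes lower in FGR than Control high-repeat cells numbered 12 and 13 at minimums of 3 and 10 repeat UMIs and 10 at a floor of 100 CPM. The cause was not tested. No paired analysis was possible because each group is 1 library and no result comes from a test over replicates. With 25 and 39 cells, most genes could pass the rule only at ratios well above 1.5.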
